A study of Mus musculus with 40 samples.

Results

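The genes described here are 46 imprinted mouse genes, grouped into the 19 chromosomal clusters in which they lie and by the parental allele that is known to be expressed. They were picked by symbol, with earlier results of the same data in view, and each symbol was matched to its NCBI gene ID. Of the 46, 43 had a row among the 15449 of the E18.5 table and 44 among the 17940 of the E14.5 table. The study sequenced polyadenylated RNA from the forebrain of male mouse embryos at E18.5 and E14.5, counted in embryonic days. Each stage had 5 libraries from Chd8 knock-in mice (KI in the labels), whose Chd8 gene is duplicated according to the study's title, and 5 from wild-type (WT) mice. The sources used here do not state the promoter or the site of the added copy, the strain or the litters, so p-values measure the spread between these libraries.

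Genomic imprinting is the silencing of 1 parental copy of a gene through DNA methylation laid down in the egg or the sperm. Imprinted genes lie in clusters that share a control region, and a cluster often holds genes of both kinds, expressed from the father's or from the mother's copy. Many act on fetal growth, and the brain is a tissue in which a large share of them is active. CHD8 is a chromatin remodeler that has been reported to bind the insulator protein CTCF, which separates enhancers from Igf2 on the maternal chromosome. The tables used here do not tell the parental alleles apart, so the allele assigned to each gene is background and was not measured.

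The values are the authors' own DESeq2 comparison of KI with WT at each stage, with no value per library. Values above 0 are taken to mean more RNA in KI, since Chd8 itself lies above 0. The authors' deposited table gives Chd8 0.51 (SE 0.038, adjusted p = 1.34e-37) at E18.5 and 0.64 (SE 0.031, adjusted p = 1.49e-88) at E14.5. SE is the standard error of the log2 fold change, and a gene is called where the deposited adjusted p, taken over all genes, is under 0.05. Of the forebrain markers listed, 12 of 12 had a row at each stage. Depth per library is unknown.

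No imprinted gene was called at E18.5, and 5 were called at E14.5, all of them higher in KI. The called genes were Rian, Peg3, Asb4, Dlk1 and Nnat, by 15.7%, 23.7%, 28.0%, 24.1% and 8.24% above WT. They lie in 4 of the 19 clusters, and both maternally expressed (Rian, Asb4) and paternally expressed genes (Peg3, Dlk1, Nnat) are among them. At E18.5 39 members had an adjusted p, of which 0 were called by DESeq2's Wald test, where 0.0662% of all 13601 tested genes were (0.0441% higher and 0.0221% lower). At E14.5 40 members had one, of which 5 were called higher and 0 lower, where 1.21% of all 13417 tested genes were called (0.738% higher and 0.47% lower). At an unadjusted p under 0.05, 7 members were higher and 0 lower at E18.5, beside 3.13% and 2.82% of all tested genes (5.96% in either direction). At E14.5 13 members were higher and 0 lower by that measure, beside 6.26% and 5.28% of all tested genes (11.5% in either direction). With the Benjamini-Yekutieli adjustment, and with an empirical null, 3 members were called at E14.5 (Rian, Peg3 and Asb4), and the empirical null called 1 at E18.5 (Nnat). The same comparisons were in view when the members were chosen, so nothing is read from these shares.

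The median log2 fold change of the members was 0.06 at E18.5 and 0.09 at E14.5, beside -0.00 over all tested genes at either stage. At E18.5 31 of 39 members were above 0, beside 48.8% of all tested genes, and at E14.5 30 of 40, beside 49.8%. The members ranged from -0.09 to 0.47 at E18.5 and from -0.14 to 0.42 at E14.5. Without the 5 called genes, a choice added after the data were seen, the median was 0.05 at E18.5 and 0.08 at E14.5. Since the members were chosen with these comparisons in view, nothing is read from these medians and shares either.

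**Figure D1:**
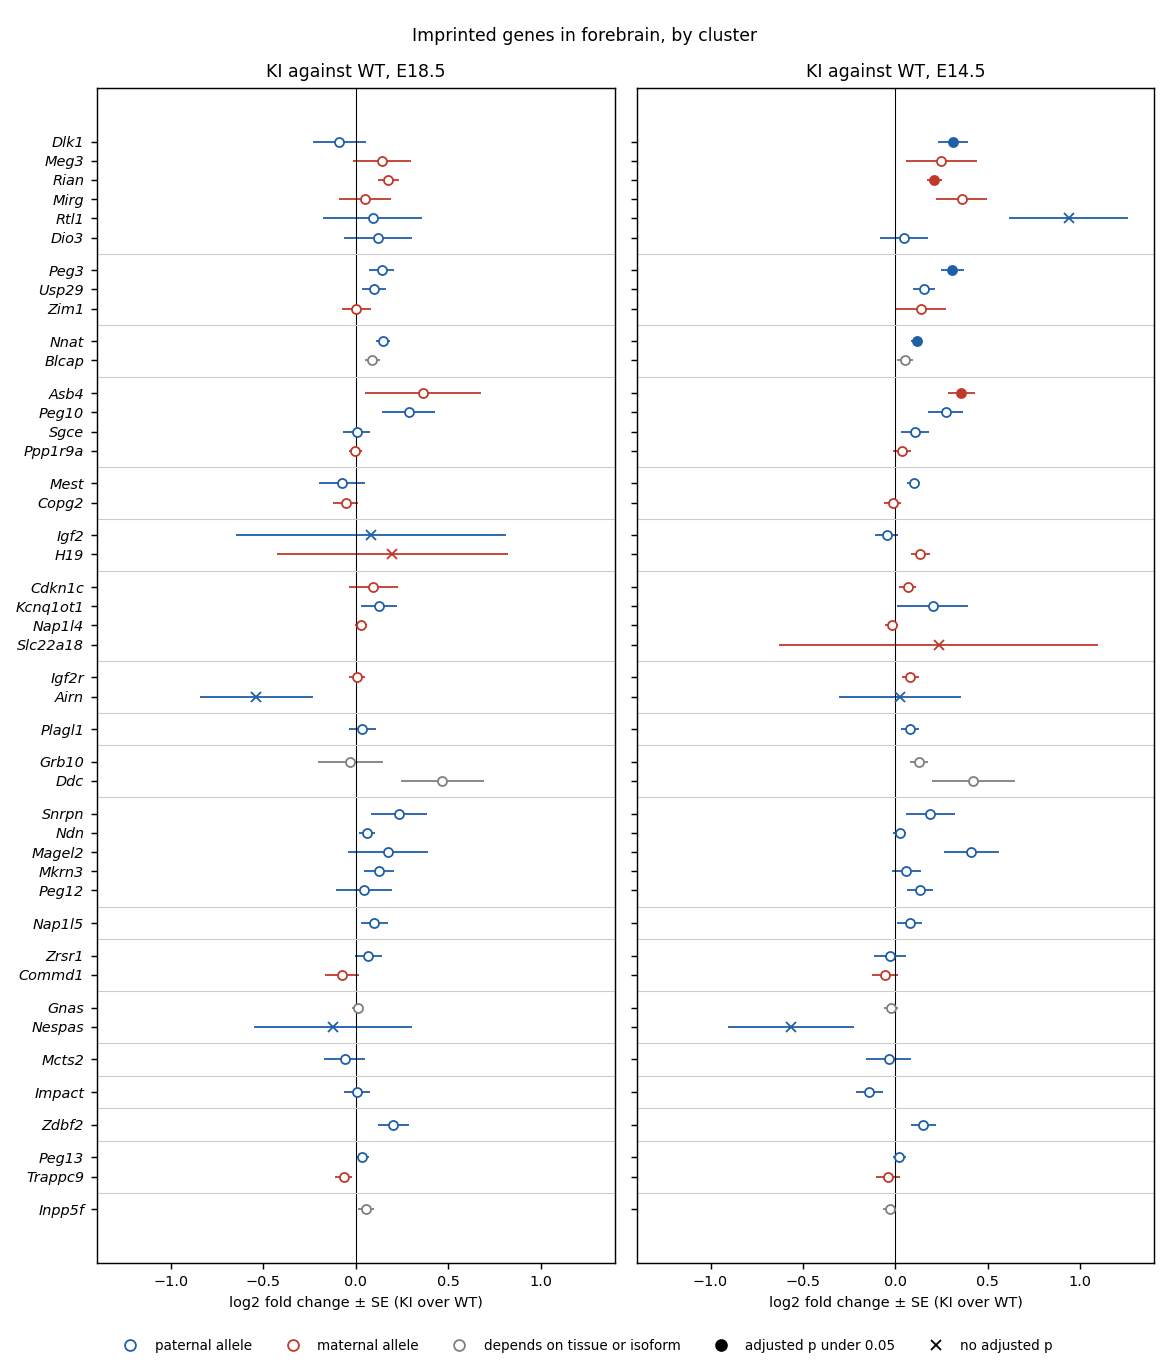
Log2 fold change of KI over WT for each imprinted gene with a row at E14.5, at E18.5 (left) and E14.5 (right), with bars of 1 SE; lines separate the clusters, colour gives the expressed allele, filled circles are called and crosses have no adjusted p. The 5 filled circles (Dlk1, Rian, Peg3, Nnat and Asb4) are at E14.5, and Igf2 and H19 have bars at E18.5 that span both directions.

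The Dlk1-Dio3 cluster lies on chromosome 12 (109452485 to 110281097 in GRCm38). From the father's copy it makes the proteins Dlk1, Rtl1 and Dio3, and from the mother's copy the long non-coding RNAs Meg3, Rian and Mirg, which carry small nucleolar RNAs and microRNAs. RefSeq places 58 microRNA hairpins between the ends of the cluster. Of these 1 lies within the annotated span of Meg3, 3 within Rian, 10 within Mirg and 15 within Rtl1, and the others lie in no member. Mature sequences of both Mir770 and Mir1906-1 lie within Meg3, so the hairpins counted do not cover every mature sequence. The microRNAs themselves were not measured here. A few mature sequences are shown, with the seed (bases 2 to 8) in capitals, because they lie within the spans of measured genes of the cluster. The first set lies within Rian, the transcript with the lowest adjusted p among the members.
mmu-miR-370-5p: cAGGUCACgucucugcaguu
mmu-miR-370-3p: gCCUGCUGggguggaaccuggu
mmu-miR-341-5p: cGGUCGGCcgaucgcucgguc
mmu-miR-341-3p: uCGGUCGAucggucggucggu
The next set lies within Mirg, and miR-453 and miR-496a-5p among them share the seed GGUUGCC.
mmu-miR-154-5p: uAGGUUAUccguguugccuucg
mmu-miR-410-3p: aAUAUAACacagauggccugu
mmu-miR-453: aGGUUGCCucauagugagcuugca
mmu-miR-496a-5p: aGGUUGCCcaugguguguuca
The last set lies within the span of Rtl1, and these are known to be made from the maternal strand opposite to its coding sequence, so Rtl1 RNA does not carry them.
mmu-miR-127-3p: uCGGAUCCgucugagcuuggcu
mmu-miR-136-5p: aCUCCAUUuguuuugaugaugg
mmu-miR-431-5p: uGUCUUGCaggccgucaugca
mmu-miR-433-3p: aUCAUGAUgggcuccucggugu
All 114 mature sequences of the cluster have 104 different seeds, and 10 seeds are carried by more than 1 of them.

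In this cluster Rian and Dlk1 were higher in KI at E14.5, and neither was called at E18.5. Dlk1 lost its call with the Benjamini-Yekutieli adjustment (adjusted p = 0.213) and with an empirical null (adjusted p = 0.241), while Rian kept its call with both. Rian (gene ID 75745), a nuclear RNA that hosts small nucleolar RNAs, stood at 0.18 (SE 0.054, adjusted p = 0.266) at E18.5 and 0.21 (SE 0.041, adjusted p = 0.000187) at E14.5, per the authors' deposited table. Its mean normalized counts there were 13706 at E18.5 and 6425 at E14.5. Dlk1 (gene ID 13386), a membrane protein related to the Notch ligands, stood at -0.09 (SE 0.143, adjusted p = 1) at E18.5 and 0.31 (SE 0.083, adjusted p = 0.0211) at E14.5, per the authors' deposited table. The 95% interval of Dlk1 reached from -0.37 to 0.19 at E18.5 and from 0.15 to 0.47 at E14.5. The 2 genes are known to be read from opposite parental copies.

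The other genes of the cluster were above 0 at both stages without a call. Mirg was at 0.05 (SE 0.143) at E18.5 and 0.36 (SE 0.137, adjusted p = 0.201) at E14.5, per the authors' deposited table. Rtl1, a protein derived from a retrotransposon and needed in the placenta, was at 0.09 (SE 0.269) at E18.5 and 0.94 (SE 0.323, p = 0.00377) at E14.5, per the authors' deposited table. At E14.5 its mean normalized count of 19.9 left it without an adjusted p. Meg3 was at 0.14 (SE 0.157) at E18.5 and 0.25 (SE 0.191, adjusted p = 0.673) at E14.5, per the authors' deposited table, with intervals from -0.17 to 0.45 and from -0.13 to 0.62. Dio3, which inactivates thyroid hormone, was at 0.12 (SE 0.183) and 0.04 (SE 0.129) at E18.5 and E14.5, per the authors' deposited table. The annotated span of Rtl1 overlaps those of Meg3 and Rian on the other strand. Whether reads were counted by strand is not given in the sources used here, so reads of these genes may not have been told apart. Of the 3 nearest tested genes on each side, 1 of 6 was above 0 at E18.5 and 2 of 6 at E14.5, with medians of -0.03 and -0.01 and no call. The nearest on the proximal side, Begain, Wdr25 and Wars, were at -0.09 (SE 0.060), -0.12 (SE 0.148) and -0.02 (SE 0.042) at E14.5, per the authors' deposited table. On the distal side Ppp2r5c was at -0.01 (SE 0.040) and 1700001K19Rik at 0.07 (SE 0.177) at that stage. Dync1h1, also distal, was at 0.13 (SE 0.044, adjusted p = 0.143), per the authors' deposited table.

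The Peg3 cluster on chromosome 7 holds a family of zinc-finger genes and Usp29, a ubiquitin protease. Peg3 (gene ID 18616, 6703892 to 6730462 in GRCm38), a zinc-finger regulator known in mice for effects on maternal behaviour and growth, was higher in KI at E14.5. The authors' deposited table gives Peg3 0.14 (SE 0.069, adjusted p = 0.825) at E18.5 and 0.31 (SE 0.062, adjusted p = 0.000487) at E14.5, at mean normalized counts of 2971 and 3383. Usp29, which starts next to Peg3 and runs the other way from the same paternal control region, was at 0.10 (SE 0.064) and 0.15 (SE 0.060, adjusted p = 0.220), per the authors' deposited table. The maternally expressed Zim1 was at 0.00 (SE 0.079) and 0.14 (SE 0.138, adjusted p = 0.776), per the authors' deposited table. The 300-base windows around the RefSeq starts of Peg3 and Usp29 share 263 bases. The 6 flanking genes had a median of -0.02 at E18.5 and -0.09 at E14.5, with 3 and 1 of them above 0.

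Nnat and Blcap share a locus on chromosome 2, with Nnat inside an intron of Blcap. Nnat (gene ID 18111, 157560078 to 157562525 in GRCm38) encodes neuronatin, a small membrane protein of the endoplasmic reticulum in developing neurons. Of the 5 called genes Nnat had the smallest change at E14.5: it was at 0.15 (SE 0.039, adjusted p = 0.0996) at E18.5 and 0.11 (SE 0.031, adjusted p = 0.0228) at E14.5, per the authors' deposited table. Its mean normalized counts of 35695 and 44535 were those of the authors' deposited table. Nnat lost its call at E14.5 with the Benjamini-Yekutieli adjustment (adjusted p = 0.230) and with an empirical null (adjusted p = 0.250); with the empirical null it was called at E18.5 (adjusted p = 0.038). Blcap, whose imprinting depends on the isoform, was at 0.09 (SE 0.039, adjusted p = 0.770) at E18.5 and 0.05 (SE 0.045, adjusted p = 0.725) at E14.5, per the authors' deposited table. The 6 flanking genes had medians of 0.02 and -0.00, with 4 and 3 of them above 0.

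The Peg10-Sgce cluster on chromosome 6 spans genes of both parental classes. Asb4 (gene ID 65255, 5383386 to 5433022 in GRCm38), a maternally expressed ankyrin-repeat protein of a ubiquitin ligase, was at 0.36 (SE 0.313, adjusted p = 1) at E18.5 and 0.36 (SE 0.074, adjusted p = 0.000668) at E14.5, per the authors' deposited table. The size was alike at the 2 stages, while the SE at E18.5 was 2.45 times that of genes with a like mean. Peg10, a paternally expressed protein of retrotransposon origin, was at 0.29 (SE 0.144, adjusted p = 0.827) and 0.27 (SE 0.095, adjusted p = 0.143), per the authors' deposited table. Its unadjusted p was 0.046 at E18.5 and 0.00444 at E14.5, per the authors' deposited table. Sgce, the epsilon-sarcoglycan gene mutated in human myoclonus dystonia, was at 0.00 (SE 0.075) and 0.11 (SE 0.077), per the authors' deposited table. Ppp1r9a, a synaptic scaffold protein, was at -0.00 (SE 0.035) and 0.03 (SE 0.051), per the authors' deposited table. The 6 flanking genes had medians of 0.04 at E18.5 and 0.08 at E14.5, with 3 and 4 of them above 0. At E14.5 the flanking Col1a2, a collagen gene also on the meninges list, was at 0.61 (SE 0.207, adjusted p = 0.118) and Pdk4, a kinase of glucose oxidation, at 0.33 (SE 0.230), per the authors' deposited table. A flanking gene, Dync1i1, which encodes a neuronal dynein chain and lies 293 kb beyond Asb4, was lower in KI at E14.5, with -0.07 (SE 0.045) at E18.5 and -0.38 (SE 0.082, adjusted p = 0.00167) at E14.5, per the authors' deposited table.

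**Figure D2:**
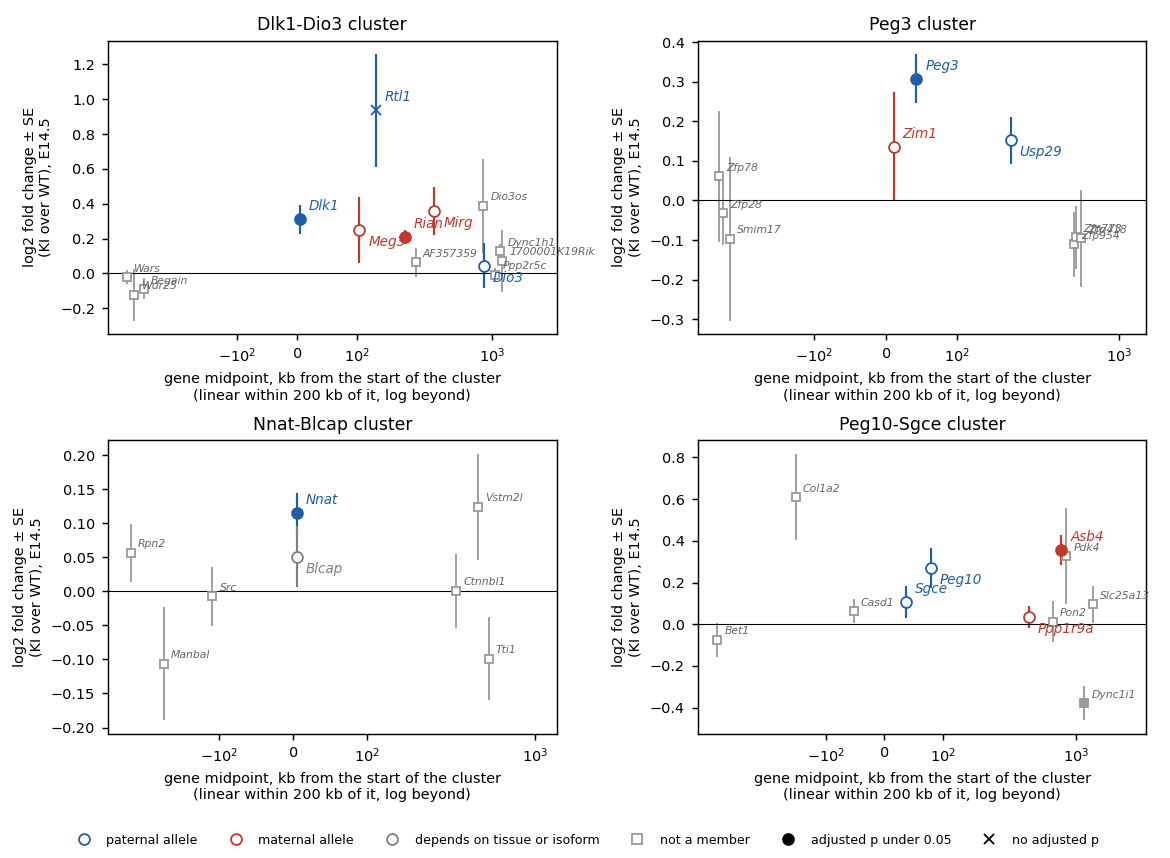
Log2 fold change of KI over WT at E14.5 (bars of 1 SE) against the distance of each gene's midpoint from the start of its cluster, for the 4 clusters that hold a called gene; circles and crosses are members, squares are the 3 nearest tested genes on each side and tested non-members inside, and filled symbols are called. Members lie above 0 in these clusters, which follows in part from picking clusters by a member called higher at this stage. Flanking genes, not picked by their values, lie on both sides of 0, with Dync1i1 at -0.38.

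The sequences around annotated starts of the genes called at E14.5 are shown for reference. They are from RefSeq (GRCm38.p6), 250 bases before the start to 50 after it, read in the direction of the gene, CpG in capitals. The window of Dlk1 (from 109452573) lies wholly within the annotated span of the gene (from 109452485), so it does not show the sequence before that span. Whether these genes moved together across libraries was not tested, as no value per library is given.
Nnat, chr2:157559828-157560127, plus strand: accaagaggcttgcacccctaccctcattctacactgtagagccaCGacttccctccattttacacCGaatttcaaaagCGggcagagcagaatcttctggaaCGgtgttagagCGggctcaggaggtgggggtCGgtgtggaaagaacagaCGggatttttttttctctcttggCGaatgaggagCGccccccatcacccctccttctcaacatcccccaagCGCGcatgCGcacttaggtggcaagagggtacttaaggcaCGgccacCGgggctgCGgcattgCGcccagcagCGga
Peg3, chr7:6730370-6730669, minus strand: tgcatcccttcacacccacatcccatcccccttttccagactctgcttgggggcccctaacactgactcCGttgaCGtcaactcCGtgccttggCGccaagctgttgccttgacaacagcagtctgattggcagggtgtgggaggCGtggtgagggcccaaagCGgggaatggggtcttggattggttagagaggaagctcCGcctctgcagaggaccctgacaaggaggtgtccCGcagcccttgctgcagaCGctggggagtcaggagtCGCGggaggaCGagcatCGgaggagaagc
Dlk1, chr12:109452573-109452872, plus strand: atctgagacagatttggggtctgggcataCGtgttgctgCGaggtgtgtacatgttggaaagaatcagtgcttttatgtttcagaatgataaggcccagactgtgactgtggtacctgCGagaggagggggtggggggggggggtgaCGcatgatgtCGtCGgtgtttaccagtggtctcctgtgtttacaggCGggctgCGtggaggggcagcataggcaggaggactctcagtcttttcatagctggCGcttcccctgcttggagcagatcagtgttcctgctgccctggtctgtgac
Asb4, first of 2 windows, chr6:5383136-5383435, plus strand: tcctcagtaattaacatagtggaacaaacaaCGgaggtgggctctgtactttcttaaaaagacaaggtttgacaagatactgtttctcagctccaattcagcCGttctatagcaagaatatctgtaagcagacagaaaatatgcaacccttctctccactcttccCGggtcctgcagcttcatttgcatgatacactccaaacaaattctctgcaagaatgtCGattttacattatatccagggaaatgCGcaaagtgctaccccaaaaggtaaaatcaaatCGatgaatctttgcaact
Rian, chr12:109603695-109603994, plus strand: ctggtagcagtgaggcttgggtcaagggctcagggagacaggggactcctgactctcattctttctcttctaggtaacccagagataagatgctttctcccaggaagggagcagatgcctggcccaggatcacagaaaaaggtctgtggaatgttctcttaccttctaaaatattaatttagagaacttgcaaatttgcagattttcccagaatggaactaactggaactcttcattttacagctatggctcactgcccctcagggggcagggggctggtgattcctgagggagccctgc
The CpG counts of these windows were 17 for Nnat, 13 for Peg3, 9 for Dlk1, 6 for Asb4 and 0 for Rian, beside a median of 7 over all 32851 windows of the table. The second window of Asb4 had 8. Of the 46 genes, 36 had at least 1 window, 54 in all. The median CpG count was 12 over the 29 windows of paternally expressed and 13 over the 15 of maternally expressed genes. Some genes have several windows, and Snrpn and Snurf share 1, so these medians are not over separate genes.

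The distal chromosome 7 clusters hold the fetal growth genes. Igf2, the insulin-like growth factor, and H19, a long non-coding RNA expressed from the other parental copy, share enhancers across a control region bound by CTCF. At E14.5 Igf2 was at -0.05 (SE 0.062, adjusted p = 0.832) and H19 at 0.13 (SE 0.051, adjusted p = 0.197), per the authors' deposited table. At E18.5 the authors' deposited table lists neither with a p: Igf2 was at 0.08 (SE 0.730) and H19 at 0.20 (SE 0.623). DESeq2 leaves the p of an expressed gene blank where a count in some library is extreme. Of the 85 rows without a p at E18.5, Igf2 and H19 ranked 2 and 3 by mean normalized count, after Ttr, a marker of the choroid plexus. The same 85 rows held 9 of the 10 meninges and fibroblast markers with a row and 6 of the 10 choroid plexus markers with a row, but none of the 12 forebrain, 10 endothelial or 7 microglial markers. At E14.5 3 rows had no p and none of them was a member or a marker. Igf2 is known to be expressed in meninges and choroid plexus, there from both parental copies. The part of those tissues in the values of Igf2 and H19 was not tested, and in bulk RNA fewer cells of a type and less RNA per cell cannot be told apart.

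In the neighbouring Kcnq1ot1 cluster no gene was called. Cdkn1c, a maternally expressed inhibitor of cell division, was at 0.09 (SE 0.134) at E18.5 and 0.07 (SE 0.046, adjusted p = 0.619) at E14.5, per the authors' deposited table. Kcnq1ot1, the paternal RNA that silences its neighbours, was at 0.13 (SE 0.098) and 0.20 (SE 0.190), per the authors' deposited table. Nap1l4, a nucleosome assembly protein, was at 0.03 (SE 0.034) and -0.02 (SE 0.034), with intervals from -0.04 to 0.09 and from -0.09 to 0.04, per the authors' deposited table. Slc22a18, a transporter, had a row only in the E14.5 table, with a mean normalized count of 3.59 per the authors' deposited table, and Phlda2, a placental growth regulator, had a row in neither.

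No gene of the other growth regulators was called, and at E14.5 Grb10 and Mest had unadjusted p of 0.0114 and 0.00761, per the authors' deposited table. Plagl1, a zinc-finger transcription factor of an imprinted gene network, was at 0.04 (SE 0.072) at E18.5 and 0.08 (SE 0.049, adjusted p = 0.554) at E14.5, per the authors' deposited table. Igf2r, which clears IGF2 and is expressed from both copies in neurons, was at 0.01 (SE 0.044) and 0.08 (SE 0.043, adjusted p = 0.462), per the authors' deposited table. Its antisense partner Airn was at -0.54 (SE 0.305) and 0.02 (SE 0.331), at mean normalized counts of 23.6 and 19.8 that gave no adjusted p, per the authors' deposited table. Grb10, an adaptor that dampens growth-factor signalling and switches its expressed allele in neurons, was at -0.03 (SE 0.176) and 0.13 (SE 0.050, adjusted p = 0.227), per the authors' deposited table. Ddc, the neighbour of Grb10 and an enzyme of dopamine synthesis, was at 0.47 (SE 0.225, adjusted p = 0.805) and 0.42 (SE 0.225, adjusted p = 0.462), per the authors' deposited table, at means of 43.5 and 40.3. Mest, a paternally expressed enzyme of mesoderm and brain, was at -0.07 (SE 0.127) and 0.10 (SE 0.037, adjusted p = 0.190), per the authors' deposited table. Copg2, a coat protein gene whose end overlaps Mest, was at -0.05 (SE 0.067) and -0.02 (SE 0.047), per the authors' deposited table.

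The Snrpn-Ndn cluster on chromosome 7 corresponds to the human Prader-Willi region, and all its members are paternally expressed. All 5 with an adjusted p were above 0 at E18.5 and at E14.5, with medians of 0.12 and 0.13 and no call. Magel2, a regulator of endosomal protein sorting in the hypothalamus, was at 0.17 (SE 0.217) at E18.5 and 0.41 (SE 0.149, adjusted p = 0.169) at E14.5, per the authors' deposited table. Ndn, which encodes necdin, a neuronal growth suppressor related to Magel2, was at 0.06 (SE 0.042) and 0.02 (SE 0.033), per the authors' deposited table. Snrpn, a splicing protein of neurons, was at 0.23 (SE 0.152) and 0.19 (SE 0.134), per the authors' deposited table. Mkrn3, a zinc-finger ubiquitin ligase linked to puberty, was at 0.12 (SE 0.080) and 0.06 (SE 0.078), and Peg12, related to the Frat activators of Wnt signalling, at 0.05 (SE 0.153) and 0.13 (SE 0.072), per the authors' deposited table. Snurf, which shares its transcript with Snrpn, had no row. The long RNA Snhg14, no member, overlaps Snrpn and Snurf and ends before the other members. It was at 0.12 (SE 0.075) and 0.12 (SE 0.053, adjusted p = 0.348), per the authors' deposited table.

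The remaining genes are mostly lone imprinted genes or genes inside a host. Zdbf2, a paternally expressed gene whose loss in mice reduces feeding after birth, was at 0.20 (SE 0.083, adjusted p = 0.703) at E18.5 and 0.15 (SE 0.066, adjusted p = 0.314) at E14.5, per the authors' deposited table, with unadjusted p of 0.0141 and 0.0235. Impact, a brake on the translational stress kinase GCN2, was the lowest tested member at E14.5, at 0.00 (SE 0.070) and -0.14 (SE 0.073, adjusted p = 0.438), per the authors' deposited table. No gene was called among the following guest genes and those of their hosts that are members. Peg13, a long RNA inside Trappc9, was at 0.03 (SE 0.035) and 0.02 (SE 0.035), and Trappc9, a vesicle tethering protein, at -0.07 (SE 0.047) and -0.04 (SE 0.065), per the authors' deposited table. Zrsr1, a splicing factor inside an intron of Commd1, was at 0.07 (SE 0.073) and -0.03 (SE 0.086), and Commd1, a copper and trafficking protein, at -0.08 (SE 0.092) and -0.06 (SE 0.069), per the authors' deposited table. Nap1l5, a nucleosome assembly protein inside Herc3, was at 0.10 (SE 0.071) and 0.08 (SE 0.069), and Mcts2, a translation factor copy inside H13, at -0.06 (SE 0.111) and -0.04 (SE 0.121), per the authors' deposited table. Gnas, the stimulatory G protein alpha subunit, was at 0.01 (SE 0.028) and -0.03 (SE 0.036), and Inpp5f, a phosphoinositide phosphatase with a paternal brain isoform, at 0.06 (SE 0.041) and -0.03 (SE 0.034), per the authors' deposited table. Nespas, antisense at the Gnas locus and listed as Gnasas1, was at -0.12 (SE 0.426) and -0.57 (SE 0.341, p = 0.0967), per the authors' deposited table, at means of 13.4 and 23.3 with no adjusted p.

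Grouped by allele, paternally expressed genes had a median of 0.10 at E18.5 (22 tested) and 0.10 at E14.5 (22 tested). Maternally expressed genes had a median of 0.02 at E18.5 (12 tested) and 0.08 at E14.5 (13 tested). The paternal minus maternal difference was 0.08 at E18.5 and 0.02 at E14.5. It turned to -0.022 and -0.11 without the genes whose imprinting depends on tissue or isoform, and to -0.025 and -0.02 without members that overlap another gene. Of paternally expressed genes 19 of 22 were above 0 at E18.5 and 18 of 22 at E14.5; of maternally expressed genes 8 of 12 and 9 of 13. Clusters with a median above 0 numbered 14 of 18 at E18.5 and 13 of 19 at E14.5.

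The difference between stages was taken as the E18.5 log2 fold change minus that at E14.5. It was computed for the 38 members tested at both stages within 13106 genes, and no member and no other gene passed (adjusted p = 0.999 for each member). By unadjusted p 1 member, Dlk1, was under 0.05, beside 4.52% of all genes. The difference of Dlk1 was -0.40 (SE 0.165, 95% interval -0.72 to -0.08). That of Peg3 was -0.17 (SE 0.093, interval -0.35 to 0.02), that of Rian -0.03 (SE 0.068, interval -0.17 to 0.10) and that of Nnat 0.03 (SE 0.049, interval -0.06 to 0.13). For Asb4 the interval ran from -0.62 to 0.64. The median over members was -0.02, with 20 of 38 below 0 beside 50.4% of all genes, and 25 of the 38 were above 0 at both stages. The absence of a call in either direction does not show that the stages were alike.

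**Figure D3:**
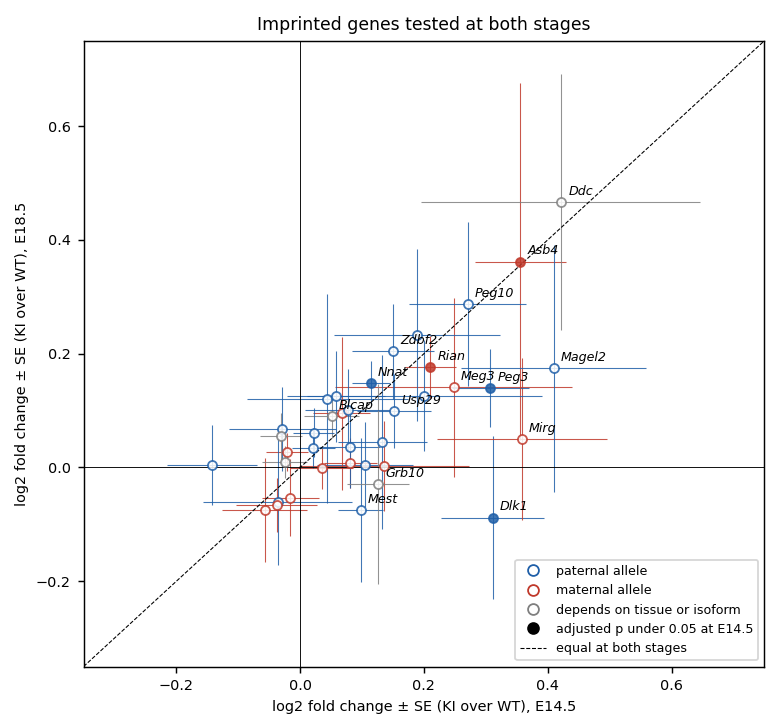
Log2 fold change of KI over WT at E18.5 (vertical axis) against that at E14.5 (horizontal axis) for the 38 members tested at both stages, with bars of 1 SE; filled circles were called at E14.5 and the dashed line marks equal values. Rian and Nnat lie near the line, and Dlk1 lies below it with -0.09 at E18.5 and 0.31 at E14.5.

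Several imprinted genes had a wider SE than genes of like mean. For each gene the SE was divided by the median SE of the 200 genes nearest in mean normalized count. A ratio of at least 1.5 was reached by 9 of 39 tested members (23.1%) at E18.5, beside 3.99% of all tested genes, and by 5 of 40 (12.5%) at E14.5, beside 1.26%. Meg3 had a ratio of 4.06 at E18.5 and 4.93 at E14.5, with an SE of 0.191 at E14.5 where genes of like mean had 0.039. Peg10 (2.95 and 2.31), Magel2 (2.73 and 2.31) and Peg3 (1.61 and 1.51) were also wide at both stages. Kcnq1ot1 was wide at E14.5 alone, with 2.62. Genes wide at E18.5 alone were Grb10 (3.38), Cdkn1c (2.72), Mest (2.58), Asb4 (2.45) and Zdbf2 (1.54), which had 1.25, 1.03, 0.911, 0.985 and 1.35 at E14.5. At E18.5 a ratio of at least 1.5 was also reached by 1 of 1 tested meninges marker (Foxc1, 2.65) and 3 of 3 tested choroid plexus markers (Otx2, Enpp2 and Sulf1, with 2.60, 6.23 and 3.21). The other lists had 2 of 3 tested erythroid, 2 of 5 microglial, 1 of 10 endothelial and pericyte, 1 of 12 forebrain and 0 of 3 diencephalon and hypothalamus markers at or above it. At E14.5 3 of 5 tested erythroid markers reached it and 0 of any other marker list. Their part in the spread of these members was not tested.

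**Figure D4:**
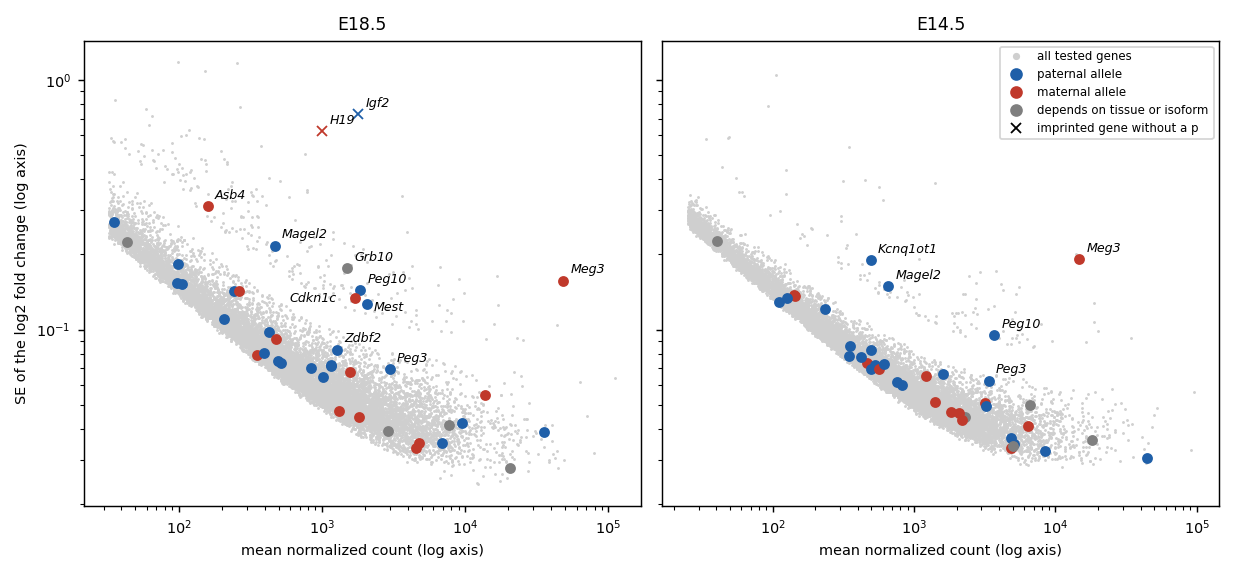
Standard error of the log2 fold change against the mean normalized count (both axes logarithmic) at E18.5 (left) and E14.5 (right), with all tested genes in grey and imprinted genes in colour; names mark members with at least 1.5 times the SE of genes of like mean. Meg3 stands above the grey band at both stages, and Igf2 and H19, without a p, stand far above it at E18.5.

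The level of some members differed between stages, with both genotypes averaged. The 2 tables were normalized separately and the means carry no error, so the ratios are a description, and levels are not compared between genes because no transcript lengths were used. Over the 13106 genes tested at both stages the median log2 ratio of E18.5 over E14.5 was 0.09. Of the 43 members with a row at both stages, 5 were at least 2-fold higher and 7 at least 2-fold lower at E18.5, beside 11.1% and 4.51% of those genes. The count of higher members was near the share of all genes. Only 38 of the 43 were tested at both stages, and Igf2 is not among these. The higher ones were Meg3 (48271 against 14741, 3.27-fold), Zim1 (353 against 142, 2.49-fold), Igf2 (1799 against 761, 2.36-fold), Nap1l5 (2.34-fold) and Rian (2.13-fold). For Igf2 the mean at E18.5 goes with the SE of 0.730. The lower ones were Peg12 (97.0 against 531, 5.48-fold lower), Grb10 (1507 against 6586, 4.37-fold lower), Asb4 (160 against 466, 2.92-fold lower) and Plagl1 (1150.5 against 3209, 2.79-fold lower). Mest (2.35-fold), Dlk1 (2.03-fold) and Peg10 (1848 against 3697) were lower too. Within the Dlk1-Dio3 cluster Meg3, Rian, Mirg (1.83-fold) and the paternally expressed Rtl1 (35.3 against 19.9, 1.78-fold) were at higher means at E18.5. Dlk1 was lower, and Dio3 averaged 98.6 against 110.3.

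**Figure D5:**
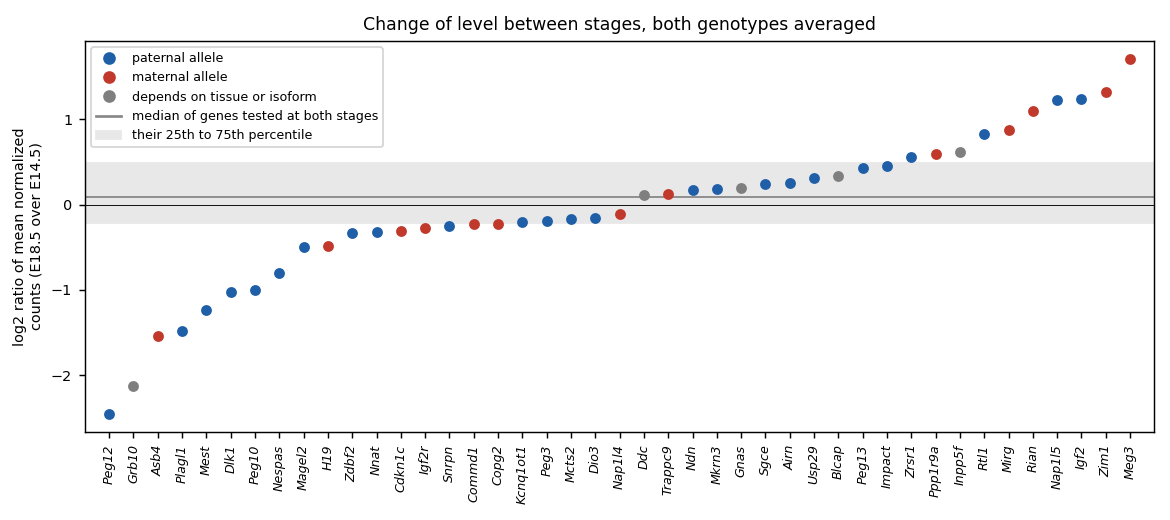
Log2 ratio of the authors' mean normalized count at E18.5 over that at E14.5 for the 43 members with a row at both stages, ordered by ratio and coloured by expressed allele; the grey line is the median of all genes tested at both stages (0.09) and the band their 25th to 75th percentile. Peg12 and Grb10 lie at -2.45 and -2.13, and Meg3 at 1.71.

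The nearest tested genes outside the clusters lay on both sides of 0. Several of them, such as Begain, Th and Ube3a, are on the list of other imprinted genes described below. Ipw and Snord64, counted as flanking the Snrpn-Ndn cluster, lie within the span of Snhg14. Some lie far off, such as Sec61g, 4464 kb beyond the Grb10-Ddc cluster. Over the 3 nearest tested genes on each side of all 19 clusters, 112 in all, the median was 0.01 at each stage, with 58 above 0 at E18.5 and 61 at E14.5. None was called at E18.5, beside 0.0662% of all tested genes, and 3 were at E14.5 (Tmem209, Dync1i1 and Th), beside 1.21%. Tmem209, a nuclear envelope protein 224 kb from Mest, was at -0.26 (SE 0.077, adjusted p = 0.209) at E18.5 and -0.30 (SE 0.061, adjusted p = 0.000487) at E14.5, per the authors' deposited table. Th, the rate-limiting enzyme of dopamine synthesis, 226 kb from Igf2, was at -0.25 (SE 0.319) and 0.83 (SE 0.202, adjusted p = 0.00801), per the authors' deposited table. Of the tested non-members inside the clusters 8 of 10 were above 0 at E18.5 (median 0.05), beside 48.8% of all tested genes. At E14.5 8 of 11 were (median 0.06), beside 49.8%, and none was called at either stage. Most of these genes lie in the Snrpn-Ndn cluster alone. Some overlap a member, such as AF357359 within Rian, Herc3 around Nap1l5 and H13 around Mcts2, so they are not independent of the members. Pon2, Herc3 and H13 are on the list of other imprinted genes.

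Among 35 genes that lay down, keep or remove imprints, 30 had an adjusted p at E18.5 and 31 at E14.5. Of these 0 and 1 were called, beside 0.0662% and 1.21% of all tested genes. The called gene was Dnmt3a, the DNA methyltransferase that sets imprints in the germ line, at 0.12 (SE 0.038, adjusted p = 0.299) at E18.5 and 0.26 (SE 0.048, adjusted p = 3.33e-05) at E14.5, per the authors' deposited table. The zinc-finger proteins that protect imprints after fertilization were near 0: Zfp57 at -0.05 (SE 0.108) and -0.07 (SE 0.062), and Zfp445 at -0.03 (SE 0.053) and -0.00 (SE 0.047), per the authors' deposited table. Ctcf was at -0.04 (SE 0.042) and -0.02 (SE 0.032), per the authors' deposited table, and the list's medians were 0.01 and 0.03.

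The marker lists of forebrain and of other tissues gave the following values beside these results. At E18.5 no marker was called. There 1 meninges and fibroblast marker was tested, at -0.09, and 2 of 3 choroid plexus markers (median 0.02) and 6 of 10 endothelial and pericyte markers (median 0.01) were above 0. At that stage 2 of 3 erythroid (median 0.10), 3 of 3 diencephalon and hypothalamus (median 0.21), 5 of 5 microglial (median 0.15) and 6 of 12 forebrain markers (median -0.00) were above 0. At E14.5 5 of 5 meninges and fibroblast (median 0.33), 2 of 3 choroid plexus (median 0.16) and 2 of 10 endothelial and pericyte markers (median -0.02) were above 0. At that stage 5 of 5 erythroid (median 0.50), 5 of 6 diencephalon and hypothalamus (median 0.11), 4 of 5 microglial (median 0.04) and 6 of 12 forebrain markers (median 0.01) were above 0. Of these lists 4 genes were called at E14.5, beside 1.21% of all tested genes. They were Hbb-y and Hba-x, embryonic globin genes without a row at E18.5 and higher in KI at E14.5, and the forebrain markers Dlx1 and Neurod6. Dlx1, of inhibitory neuron precursors, was at 0.08 (SE 0.046) at E18.5 and 0.17 (SE 0.047, adjusted p = 0.0369) at E14.5, per the authors' deposited table. Neurod6, of excitatory cortical neurons, was at -0.02 (SE 0.060) and -0.20 (SE 0.046, adjusted p = 0.00438), per the authors' deposited table. The hypothalamic markers Nkx2-4 and Rax had no row at either stage. Summed levels per genotype cannot be given from these tables, and the part of these tissues in the values of the imprinted genes was not tested.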

How the data were processed

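Polyadenylated RNA of 20 forebrain libraries, 5 of KI and 5 of WT at each stage, was compared. DESeq2 1.26.0, featureCounts 2.0.0, HISAT2 2.1.0, Trimmomatic 0.39 and build mm10 are listed, per the submitters' processing notes. Each deposited table gives, per the file headers and for each NCBI gene ID, a mean normalized count (a signal averaged over the libraries of a stage), a log2 fold change, its SE, the Wald statistic (both scores without a fixed range) and the p-value before and after adjustment. The tables hold 0 columns of per-sample values, so the authors' Wald test was used as deposited in place of a count model. Symbols, spans and sequences came from RefSeq GRCm38.p6, which matched 97.5% of IDs at E18.5 and 95.8% at E14.5.

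The members, clusters and gene lists were chosen with earlier results of these data known. Named in full are members with an unadjusted p under 0.05 at either stage and the member of each cluster with the highest mean; of other lists and flanking genes, called ones, and the first 2 of the lists of imprint-keeping and of other imprinted genes. Begain, Wdr25, Wars, Ppp2r5c, Dync1h1, 1700001K19Rik, Ipw, Snord64, Sec61g, Col1a2, Pdk4, Snhg14 and Ctcf were named after their values or positions were seen. The same holds for the uncalled marker and microRNA examples. Stage differences were divided by the root of the summed squared SEs, with normal p-values and Benjamini-Hochberg adjustment over 13106 genes (Python 3.11.15, scipy 1.17.1), a step tested on simulated data. The CHD8 ChIP-seq (3 libraries per genotype, with 3 inputs) and ATAC-seq libraries (4 per genotype) were not analysed here. Alternatives were the adjustment, the filter on low means, the null distribution, the summary and the choice of members.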

Additional observations from a re-analysis of the deposited data

How the results depend on the processing

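With the Benjamini-Yekutieli adjustment 3 members were called at E14.5 in place of 5, and with an empirical null also 3; in both cases these were Rian, Peg3 and Asb4. Dlk1 and Nnat lost their calls there (adjusted p = 0.213 and 0.230, and 0.241 and 0.250 with the empirical null). At E18.5 the empirical null called 1 member, Nnat (adjusted p = 0.038), in place of 0; the Wald statistics had a scale of 0.949 at E18.5 and 1.22 at E14.5. Over all genes the count of calls was 4 and 56 with the first alternative and 19 and 31 with the second, in place of 9 and 162. With a floor of 50 on the mean normalized count, or with every gene that has a p, the members' counts stayed at 0 and 5, while 13 and 163, or 9 and 139, of all genes were called. No stage difference was called under any of these alternatives. The paternal minus maternal difference moved to -0.022 at E18.5 and -0.11 at E14.5 without members whose imprinting depends on tissue or isoform, and to -0.025 at E18.5 without members that overlap another gene. The members' median kept its sign under every alternative listed, 3 of which were added after the data were seen. No paired analysis was possible because the tables hold no values per library; for that reason leaving out replicates and refitting with another tool were not run.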

Other observations

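Of 52 other imprinted genes that are no members, 37 had an adjusted p at E18.5 and 35 at E14.5, with medians of 0.01 at each stage. None was called at E18.5, beside 0.0662% of all tested genes, and 2 were at E14.5, beside 1.21%. These were Th, also counted above among the flanking genes, and Smoc1, a secreted matrix protein. Smoc1 was at 0.11 (SE 0.088) at E18.5 and 0.27 (SE 0.075, adjusted p = 0.0269) at E14.5, per the authors' deposited table. Ube3a, the Angelman syndrome gene, was at 0.01 (SE 0.057) and -0.04 (SE 0.044), and Atp10a, its neighbour, at -0.13 (SE 0.112) and -0.11 (SE 0.128), per the authors' deposited table.

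Of 24 genes listed from memory as a network around Plagl1, 18 were tested at E18.5 and 21 at E14.5. Of these 0 and 2 were called, beside 0.0662% and 1.21% of all tested genes. Col1a1, Col1a2, Col3a1, Dcn and Lum of this list are also on the meninges and fibroblast list. The 2 called genes encode binding proteins of the insulin-like growth factors. Igfbp5 was at -0.03 (SE 0.144) at E18.5 and 0.31 (SE 0.048, adjusted p = 1.7e-07) at E14.5, and Igfbp4 at 0.21 (SE 0.093) and 0.32 (SE 0.054, adjusted p = 8.24e-06), per the authors' deposited table. The collagens Col1a1 and Col1a2 of this list had no p at E18.5, and 10 of its 18 tested genes had at least 1.5 times the SE of genes of like mean there, beside 0 of 21 at E14.5.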
